A study of Mus musculus with 6 samples.

Results

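The genes described here are 9 genes of muscle stem cell identity, myogenic commitment and cell fusion (*Pax7*, *Pax3*, *Myf5*, *Myod1*, *Myog*, *Myf6*, *Mymk*, *Mymx* and *Myh9*), listed by symbol. All 9 were found, each with 1 probe set, among 19505 named genes on the array. They were measured in the triceps of male SAMP-10 mice, an inbred model of accelerated aging, at about 31 weeks of age, which the study's results and legends give for the other measurements after the stimulation. The muscle is the triceps in the sample labels, methods and legends, while the results text of the study names the biceps brachii for the arrays. In the u40Hz-stimulation group (mice 4, 10 and 11) the animals were kept under inaudible sound and vibration at 40 Hz, for 24 hours a day over 5 weeks. The control group (mice 1, 6 and 8) was of the same strain and sex and was not stimulated. RNA came from whole muscle, with 1 Affymetrix Mouse Clariom S array per mouse. Values are log2 signals, on which a difference of 1 is a doubling, and are listed by mouse in the order 1, 6, 8 (control) and 4, 10, 11 (u40Hz).

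Satellite cells are the resident stem cells of skeletal muscle and lie between the fibre and its basement membrane. They carry *Pax7*, and when they are activated they switch on the myogenic factors, a family of basic helix-loop-helix proteins that bind the E-box motif in DNA. *Myf5* and *Myod1* commit the cells to the muscle lineage, *Myog* drives their differentiation, and *Myf6* (MRF4) is the family member known for high expression in mature fibres. Fusion of the resulting myocytes needs the membrane proteins myomaker (*Mymk*) and myomerger (*Mymx*). In rodent muscle *Myod1* is also known to be more abundant in fast fibres and *Myog* in slow fibres.

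*Myog* is a textbook target of the myogenic factors and of their MEF2 partners, and its promoter is shown because it and *Myod1* had the largest differences among the 9 genes. The window holds the 250 bases before the start of *Myog* (chr1:134289754-134290003, plus strand, RefSeq, GRCm38.p6), with matches to the E-box CANNTG and to the MEF2 core CTANNNNTA, searched on both strands, in capitals.

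Myog: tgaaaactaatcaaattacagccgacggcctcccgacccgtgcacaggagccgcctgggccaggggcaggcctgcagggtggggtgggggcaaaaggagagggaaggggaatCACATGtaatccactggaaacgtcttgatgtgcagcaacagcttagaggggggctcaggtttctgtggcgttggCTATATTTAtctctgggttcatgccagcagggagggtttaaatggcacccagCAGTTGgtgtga

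The E-boxes CACATG and CAGTTG begin 138 and 12 bases before the start, and the MEF2 core begins 64 bases before it, with no overlap between them. Of 32851 windows of 250 bases in the same RefSeq table, 66.2% hold an E-box and 18.96% a MEF2 core on either strand, so the matches describe the window and are not measured sites. The table holds windows for 4 of the 9 genes.

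On the arrays, 9 fibre genes that mark skeletal muscle had a mean of 18.63 to 19.44, near the upper limit of the scale at 19.93. The medians of the 6 arrays lay between 5.53 and 5.61. Slow fibre markers (10 genes) averaged 12.62, 7.57 and 9.14 without stimulation and 9.40, 11.64 and 11.91 with it. Adipocyte markers (7 of 8 genes) stood at 12.44 in u40Hz mouse 4 and between 6.18 and 7.95 in the other mice. Tenocyte markers (6 genes) ran from 7.60 to 8.63 in the control group and from 6.30 to 7.24 in the u40Hz-stimulation group, without overlap. The part of these markers in the values below was not tested.

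The u40Hz-stimulation group and the control group overlapped for every one of the 9 genes. The unadjusted p of each exceeded 0.05 in limma, a linear model that borrows information on the spread from all probe sets. The differences (u40Hz minus control) ran from -0.93 for *Myod1* to 0.17 for *Myh9*, with 6 lower and 3 higher means and a median of -0.10. Over all 22206 probe sets 7.01% had an unadjusted p under 0.05 in limma, 12.4% did not overlap between the groups (6.4% higher and 6.05% lower), 48.6% had a lower mean and 50.9% a higher mean, and the median difference was 0.01. After the adjustment of Benjamini and Hochberg over all probe sets no p lay under 0.05, and among the 9 genes the smallest was 0.730. With 3 mice in each group the two-sided exact permutation test has a smallest p of 0.1. In whole muscle, fewer cells of a type and less RNA per cell cannot be told apart.

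**Figure D1:**
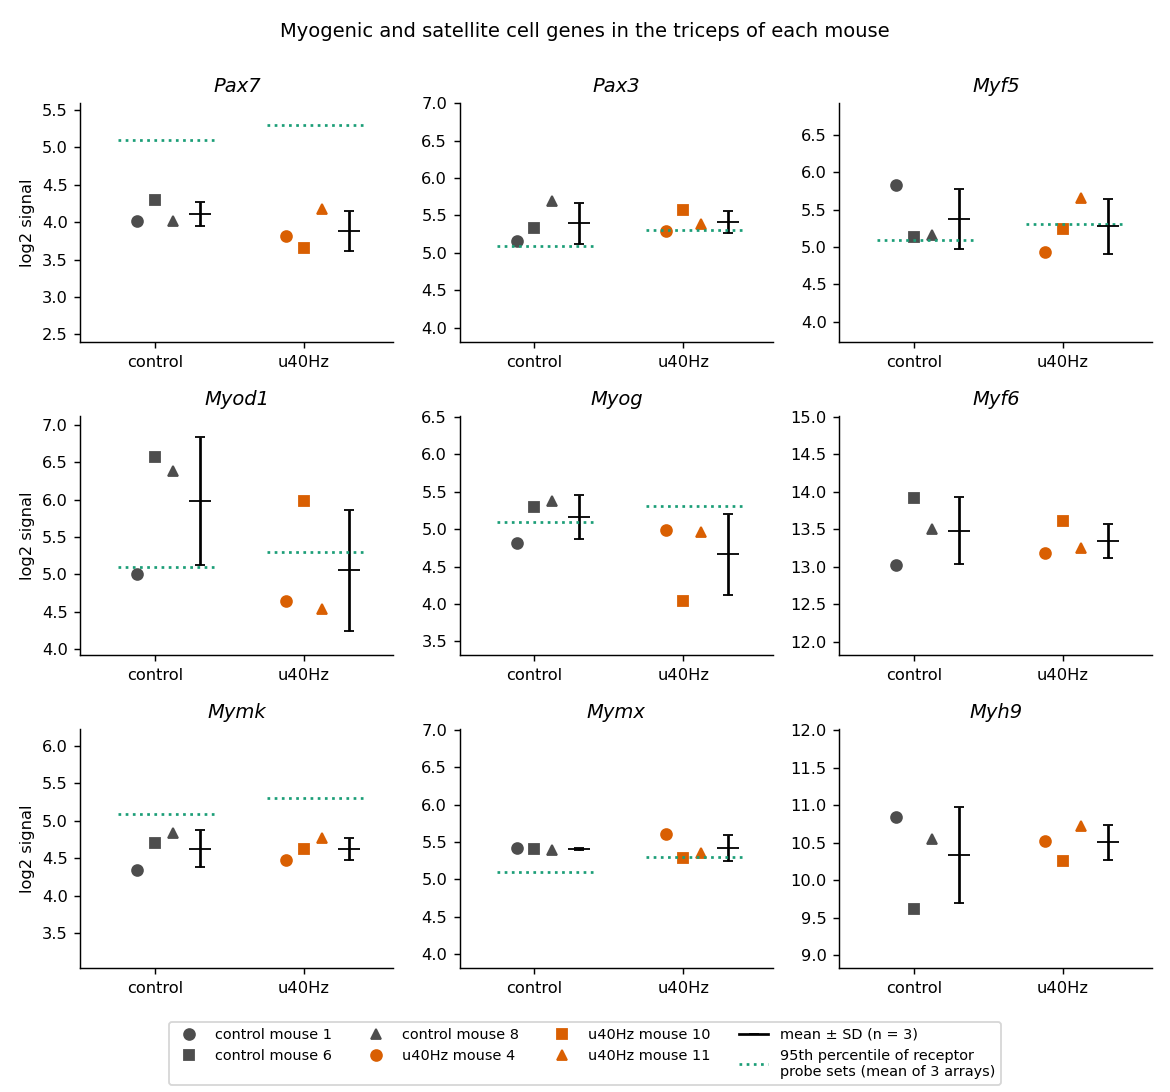
Log2 signal of each of the 9 genes in each mouse (grey, control; orange, u40Hz; bars, mean ± SD, n = 3; dotted green, mean over a group's arrays of the 95th percentile of olfactory and vomeronasal receptor probe sets). The 2 groups overlap in every panel, and *Myf6* and *Myh9* stand far above the receptor probe sets, where no dotted line falls within the panel.

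Because the deposited table holds no detection call, the signals were set beside those of 1412 probe sets for olfactory and vomeronasal receptors, which muscle is not known to use. Their 95th percentile was 5.08 to 5.11 on the control arrays and 5.21 to 5.42 on the u40Hz arrays, and their median was 3.68 to 3.71 and 3.77 to 3.86, so dim receptor probe sets read slightly higher in the stimulated mice. *Pax7* and *Mymk* lay within that range on all 6 arrays, *Myog* on 4, *Myod1* on 3, *Myf5* on 2 and *Pax3* on 1. *Mymx* was just above it on every array, and *Myf6* and *Myh9* far above it. A decrease of a gene already inside that range could go unseen on these arrays, and the size of a difference that rests on values inside it is uncertain.

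*Pax7*, the transcription factor that maintains satellite cells, had log2 signals of 4.02, 4.29 and 4.01 without stimulation and of 3.81, 3.66 and 4.17 with it. Stimulated mice 4 and 10 were the lowest, and mouse 11 lay within the control values. The difference was -0.23 (standard error 0.21, 95% interval from -0.70 to 0.25, unadjusted p = 0.308, adjusted p = 0.832 from limma), and it was -0.37 without u40Hz mouse 11 and -0.12 without u40Hz mouse 10. *Pax3*, the related factor of migrating embryonic muscle progenitors, measured 5.16, 5.33 and 5.69 without stimulation and 5.29, 5.57 and 5.38 with it, and the stimulated values lay inside the control range. Its difference of 0.02 had a 95% interval from -0.46 to 0.50 (limma), and its sign turned when control mouse 1 (-0.10), control mouse 6 (-0.0117) or u40Hz mouse 10 (-0.0583) was left out.

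*Myod1*, which commits cells to the muscle lineage, had the largest difference of the 9 genes and varied most from mouse to mouse. Its log2 signals were 5.00, 6.57 and 6.38 without stimulation and 4.64, 5.98 and 4.54 with it. Control mice 6 and 8 were the highest, u40Hz mouse 10 came next, and control mouse 1 lay below it, so the groups overlapped. The means were 5.05 ± 0.80 (SD, n = 3) with u40Hz stimulation and 5.98 ± 0.86 (SD, n = 3) in the control group. The difference was -0.93 (95% interval from -2.06 to 0.20, unadjusted p = 0.0958, adjusted p = 0.730 from limma; two-sided exact permutation p = 0.2). Its size is uncertain, since u40Hz mice 4 and 11 and control mouse 1 lay within the range of the receptor probe sets. Its spread within the groups (residual SD 0.83) exceeded that of 98.2% of all probe sets, whose median was 0.29. Without control mouse 1 the difference was -1.42 (unadjusted p = 0.0118 from limma) and without u40Hz mouse 10 it was -1.39 (unadjusted p = 0.0175 from limma). In both cases the groups no longer overlapped. This follows from the choice of mouse, since the overlap came from these 2 mice alone. In these fits of 5 mice 8% and 8.28% of all probe sets had an unadjusted p under 0.05 (limma), and 25.4% and 25.1% were without overlap. The difference of *Myod1* was -0.64 without control mouse 6 (unadjusted p = 0.275 from limma) and -0.73 without control mouse 8 (unadjusted p = 0.241 from limma). Without u40Hz mouse 4 it was -0.72 and without u40Hz mouse 11 -0.67 (limma, unadjusted p = 0.227 and 0.265 in that order).

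Over the 6 arrays, the genes closest to *Myod1* were *Sorbs2*, *Slc15a4* and *Mylk2*, out of 17133 compared, with root mean square differences from its centred values of 0.23, 0.25 and 0.26 on the log2 scale. *Mylk2* encodes the myosin light chain kinase of skeletal muscle, which is most abundant in fast fibres, *Sorbs2* an adaptor protein of the sarcomere's Z-disc, and *Slc15a4* a transporter of histidine and peptides. *Mylk2* had log2 signals of 15.10, 16.26 and 16.12 without stimulation and of 15.05, 15.72 and 14.67 with it. The same 3 mice were highest as for *Myod1*, which follows from how the gene was picked. How close the nearest of 17133 genes come to any pattern of 6 values was not tested. The slow fibre markers were lowest in control mice 6 and 8, where *Myod1* was highest. In u40Hz mouse 4 they were the next lowest (9.40), and there *Myod1* was at 4.64. The part of fibre type in the *Myod1* values was not tested.

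**Figure D2:**
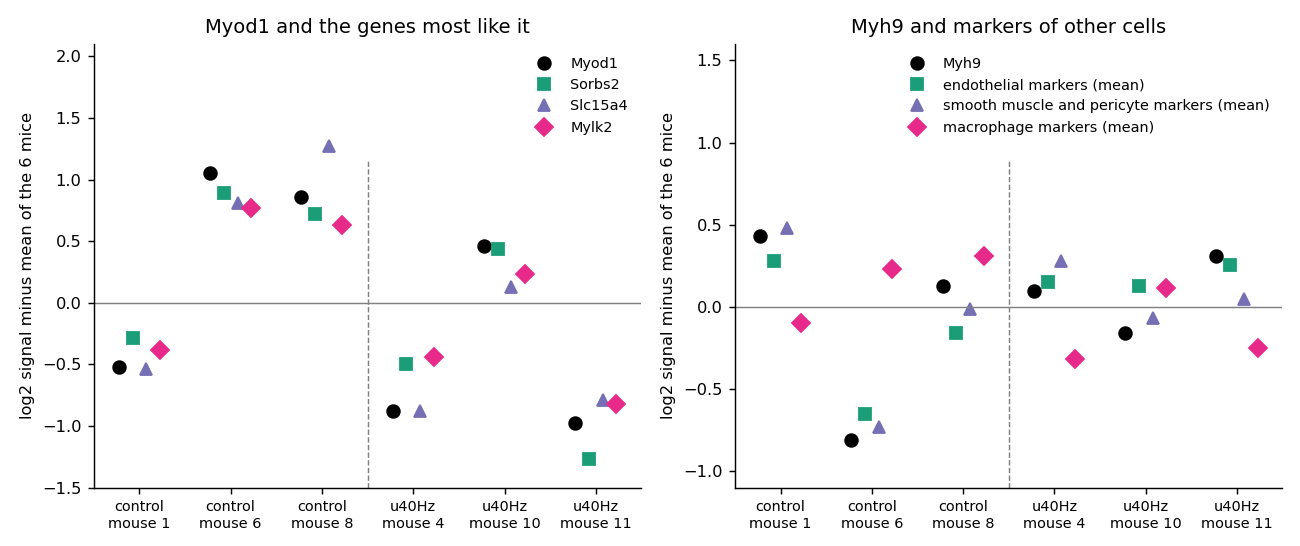
Log2 signal minus the mean of the 6 mice, by mouse. Left, *Myod1* and the 3 genes most like it, picked by their values in these mice. Right, *Myh9* and the means of 3 marker lists picked after their values were seen. Control mice 6 and 8 and u40Hz mouse 10 are above the mean for *Myod1*, *Sorbs2*, *Slc15a4* and *Mylk2*. Control mouse 6 is the lowest for *Myh9*, for the endothelial and the smooth muscle and pericyte markers, and for other marker lists not shown.

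*Myog*, which drives differentiation, measured 4.82, 5.30 and 5.37 without stimulation and 4.99, 4.04 and 4.96 with it. Control mice 6 and 8 were again the highest, u40Hz mouse 10 stood alone at the bottom, and control mouse 1 lay below u40Hz mice 4 and 11. The difference was -0.50 (standard error 0.30, 95% interval from -1.18 to 0.18, unadjusted p = 0.130, adjusted p = 0.747 from limma), and it was -0.19 without u40Hz mouse 10. All 3 stimulated values and that of control mouse 1 lay within the range of the receptor probe sets, so the size of the difference is uncertain. Without control mouse 1 it was -0.67 and the groups did not overlap, in a fit where 25.4% of all probe sets did not. *Myod1* and *Myog* shared their 2 highest mice, while u40Hz mouse 10 was the highest stimulated mouse for *Myod1* and the lowest for *Myog*. Where *Myog* was highest, in control mice 6 and 8, the slow fibre markers were lowest (7.57 and 9.14). They stood at 11.64 in u40Hz mouse 10, where *Myog* was lowest. The part of fibre type in the *Myog* values was not tested.

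*Myf5*, the early commitment factor, had log2 signals of 5.83, 5.13 and 5.16 without stimulation and of 4.93, 5.24 and 5.66 with it. Control mouse 1 and u40Hz mouse 11 were highest, and the difference was -0.10 (95% interval from -0.72 to 0.53, limma), turning to 0.13 without control mouse 1 and to 0.0767 without u40Hz mouse 4. *Myf6*, its neighbour on the same chromosome, measured 13.02, 13.92 and 13.51 without stimulation and 13.18, 13.61 and 13.25 with it, the stimulated values inside the control range. It was the only myogenic factor far above the receptor probe sets. Its difference of -0.14 had a 95% interval from -0.74 to 0.46 (unadjusted p = 0.617 from limma), equal to 0.600-fold to 1.38-fold, and it was 0.0817 without control mouse 6.

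The fusion proteins showed the smallest differences. *Mymk* measured 4.35, 4.70 and 4.84 without stimulation and 4.48, 4.63 and 4.77 with it, a difference of -0.00333 with a 95% interval from -0.47 to 0.47 (limma). Its sign turned when control mouse 6 (0.0317), control mouse 8 (0.10) or u40Hz mouse 4 (0.0700) was left out. *Mymx* measured 5.42, 5.41 and 5.39 without stimulation and 5.61, 5.28 and 5.35 with it, so the 3 control mice lay between u40Hz mouse 4 and the other stimulated mice. The difference was 0.00667 (95% interval from -0.41 to 0.43, limma), and it was -0.0917 without u40Hz mouse 4, where the groups did not overlap (nor did 22.2% of all probe sets), and -0.00167 without control mouse 8. As folds, the intervals run from 0.720 to 1.38 for *Mymk* and from 0.751 to 1.34 for *Mymx*. These are intervals of the signal. *Mymk* lay within the range of the receptor probe sets on every array and *Mymx* just above it, so a decrease of their RNA could go unseen.

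*Myh9* encodes the heavy chain of non-muscle myosin IIA, a motor of the cell cortex found in most cell types, blood vessel and immune cells included. Its log2 signals were 10.85, 9.61 and 10.55 without stimulation and 10.52, 10.26 and 10.73 with it. Control mouse 6 was the lowest by a wide margin and the stimulated mice lay inside the control range. The difference was 0.17 (standard error 0.32, 95% interval from -0.57 to 0.90, unadjusted p = 0.618, adjusted p = 0.930 from limma). Leaving out control mouse 6 gave -0.20, and leaving out control mouse 1 gave 0.42. The means of 6 endothelial markers were 10.07, 9.14 and 9.63 without stimulation and 9.94, 9.91 and 10.04 with it, and those of 6 smooth muscle and pericyte markers were 10.53, 9.32 and 10.03, and 10.33, 9.98 and 10.09. Both were lowest in control mouse 6. This was not particular to them. Control mouse 6 also had the lowest mean of the myofibre (18.63), slow fibre (7.57), adipocyte (6.18), Schwann cell (5.31) and other leukocyte (4.40) markers. The myofibre genes did not move together. Some were lowest in that mouse, while others were near their highest there or at the upper limit on every array. The macrophage markers (6 of 7 genes) were at 8.05, 8.38 and 8.46, and at 7.83, 8.26 and 7.90. Their part in the *Myh9* values was not tested.

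**Figure D3:**
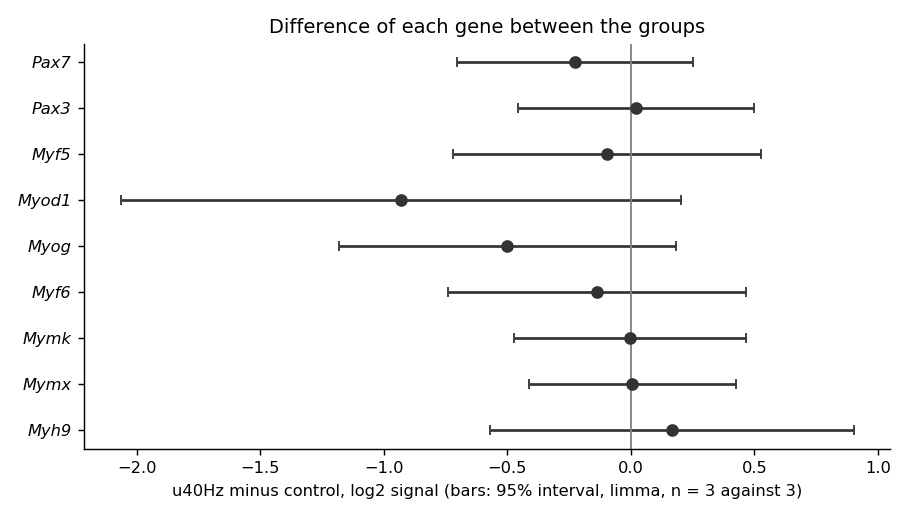
Difference between the u40Hz-stimulation group and the control group for each gene (point, log2 scale) with its 95% interval from limma (bar, n = 3 against 3). All 9 intervals include 0, from the narrowest for *Mymx* (-0.41 to 0.43) to the widest for *Myod1* (-2.06 to 0.20).

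Genes of the same pathways were read from 9 lists with 135 genes, of which 127 were measured. Of these 127 genes, 14 (11.02%) had an unadjusted p under 0.05 in limma, 8 higher and 6 lower, beside 7.01% of all probe sets (3.86% higher and 3.15% lower), and none passed the adjusted threshold. The groups did not overlap for 18 of the 127, beside 12.4% of all probe sets. Because the lists were chosen with earlier results of these data known, these shares are no separate support for a change. The median difference of the Notch and inhibitor lists was above 0, and that of the immature muscle list below 0, under every scaling and with any mouse left out. The median of the partner list was 0 without u40Hz mouse 4, and those of the other lists changed sign under at least 1 alternative.

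Among 16 genes of the satellite cell surface and of quiescence, the mean was higher for 9 and lower for 7 (median difference 0.0350). *Chrdl2*, a secreted BMP-binding protein, had log2 signals of 3.97, 3.64 and 3.61 without stimulation and of 4.83, 4.52 and 5.04 with it. The lowest stimulated mouse was above the highest control mouse, yet all 6 values lay within the range of the receptor probe sets. Its difference was 1.06 (standard error 0.21, limma's unadjusted p = 0.000977 and adjusted p = 0.635), from 0.94 to 1.19 when each mouse was left out. *Met*, the receptor for hepatocyte growth factor that wakes satellite cells, measured 9.35, 9.34 and 9.33 without stimulation and 9.96, 9.59 and 9.88 with it, a difference of 0.47 (unadjusted p = 0.0346 from limma) without overlap. *Megf10*, a receptor of satellite cells, had a difference of -0.58 (unadjusted p = 0.0499 from limma), also without overlap. When each mouse was left out, *Met* ran from 0.395 to 0.58 and *Megf10* from -0.72 to -0.39. Of these 6 fits, 1 for *Met* and 2 for *Megf10* had an unadjusted p under 0.05 (limma). M-cadherin (*Cdh15*) and the calcitonin receptor (*Calcr*), named as further satellite cell markers after their values were seen, had differences of -0.31 and 0.0367. All 6 values of *Calcr* (4.14 to 4.81) lay within the range of the receptor probe sets. The differences of the 16 genes ran from -0.58 to 1.06.

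Notch signalling keeps satellite cells quiescent. Of its 11 measured genes 10 had a higher mean, beside 50.9% of all probe sets, with a median difference of 0.0667. The mean of the list was 6.90, 6.57 and 6.85 without stimulation and 6.88, 6.91 and 6.88 with it. Control mouse 6 was thus the lowest, and without it the median difference was 0.0167. None of the 11 had an unadjusted p under 0.05 in limma, and none was without overlap between the groups. The ligands *Jag1*, *Dll1* and *Dll4* had differences of 0.41, -0.39 and 0.43 (limma, unadjusted p = 0.0890, 0.110 and 0.240 in that order). That of *Dll4* was 0.16 without u40Hz mouse 10 or without control mouse 6, and 0.72 without control mouse 1.

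Of 11 measured partners of the myogenic factors, 3 had a higher and 8 a lower mean (median -0.0400). *Smarcd3*, a chromatin remodelling subunit that works with *Myod1*, measured 12.39, 13.39 and 12.44 without stimulation and 12, 12.17 and 12.07 with it. The groups did not overlap, and its difference was -0.66 (unadjusted p = 0.0463, adjusted p = 0.711 from limma), but -0.34 without control mouse 6, which was far above the rest. *Tcf4* and *Mef2d*, an E protein and a MEF2 factor, had differences of 0.34 and -0.28 (limma, unadjusted p = 0.184 for the first and unadjusted p = 0.202 for the second). For *Tcf4* it was 0.18 without u40Hz mouse 11 and 0.52 without u40Hz mouse 4, and for *Mef2d* -0.16 without control mouse 6.

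Of 13 measured inhibitors of the myogenic factors, 8 had a higher and 5 a lower mean (median 0.13). *Dach2*, which is known in mice to repress *Myog* in innervated muscle, measured 5.12, 4.90 and 4.98 without stimulation and 5.42, 6.10 and 6.78 with it. All 3 stimulated mice were above the control mice, u40Hz mouse 4 by the smallest margin, and 3 of the 6 values lay within the range of the receptor probe sets. The difference was 1.10 (standard error 0.32, limma's unadjusted p = 0.00840 and adjusted p = 0.695), from 0.76 without u40Hz mouse 11 to 1.44 without u40Hz mouse 4. The histone deacetylase *Hdac9*, a repressor of MEF2 factors, was at 10.60, 10.07 and 10.32 and at 11.41, 10.55 and 10.92, with u40Hz mouse 10 inside the control range. Its difference was 0.63 (unadjusted p = 0.0420 from limma), and 0.41 without u40Hz mouse 4. *Twist1*, a repressor of the myogenic factors, had a difference of 0.49 (unadjusted p = 0.136 from limma) and of 0.18 without control mouse 8, with all 6 values within the range of the receptor probe sets.

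Of 11 measured genes of immature and regenerating muscle, 2 had a higher and 8 a lower mean (median -0.21), and perinatal myosin *Myh8* stood at the upper limit on all 6 arrays, where no difference can be measured. Embryonic myosin *Myh3* measured 6.47, 5.43 and 6.17 without stimulation and 6.48, 7.38 and 6.94 with it. The groups were separated only by the narrow step from control mouse 1 to u40Hz mouse 4, and the difference was 0.91 (unadjusted p = 0.0221, adjusted p = 0.695 from limma). *Myh3* and *Myh8* belong to a family of closely similar genes, so the share of signal from other myosins is uncertain. *Mybph*, a myosin-binding protein, measured 7.71, 12.31 and 9.22 without stimulation and 8.08, 8.49 and 6.99 with it. Its difference of -1.89 (unadjusted p = 0.0914 from limma) was -0.61 without control mouse 6 and -2.91 without control mouse 1. Desmin (*Des*) had a difference of -0.37 (unadjusted p = 0.0939 from limma).

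Acetylcholine receptor and denervation-responsive genes, several of them targets of *Myog*, had 4 higher and 4 lower means of 8 measured. The unadjusted p of each was over 0.05 (limma). The receptor subunit *Chrnb1* measured 8.54, 9.31 and 8.70 without stimulation and 8.48, 8.48 and 8.30 with it, without overlap, a difference of -0.43 (unadjusted p = 0.106 from limma). It was -0.20 without control mouse 6. *Runx1*, a transcription factor, and the fetal subunit *Chrng*, whose values all lay within the range of the receptor probe sets, had differences of -0.28 and 0.27 (limma, unadjusted p = 0.194 for the first and unadjusted p = 0.345 for the second). Without u40Hz mouse 10 they were -0.18 and 0.0167, and that of *Chrng* was 0.52 without u40Hz mouse 4.

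Of 20 measured fusion genes other than *Mymk* and *Mymx*, 11 had a higher and 9 a lower mean (median 0.005). *Dock5*, an activator of the small GTPase Rac, measured 5.69, 5.49 and 5.69 without stimulation and 6.23, 5.92 and 6.28 with it. The groups did not overlap, and the difference was 0.52 (unadjusted p = 0.0256, adjusted p = 0.700 from limma). *Cdon* and *Boc*, which form a receptor complex that promotes myogenesis, had differences of -0.57 and -0.66 (limma, unadjusted p = 0.0498 for the first and unadjusted p = 0.0610 for the second), with overlap for both, and that of *Boc* was -0.41 without control mouse 8.

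Among 16 measured genes of non-muscle actomyosin, the machinery in which *Myh9* works, 8 had a higher and 8 a lower mean (median -0.0183). *Actn1*, a non-muscle actin crosslinker, measured 6.67, 6.25 and 6.73 without stimulation and 5.91, 5.91 and 5.98 with it, without overlap, a difference of -0.62 (standard error 0.20, limma's unadjusted p = 0.0140 and adjusted p = 0.695). The related *Actn4* and β-actin (*Actb*) had differences of -0.39 and -0.33 (limma, unadjusted p = 0.0839 for the first and unadjusted p = 0.184 for the second), and that of *Actb* was -0.15 without u40Hz mouse 10.

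Cell division genes, which rise when satellite cells proliferate, had 9 higher and 11 lower means of 21 measured (median -0.0967), and *Mcm5* had equal means. The 4 with an unadjusted p under 0.05 in limma ran both ways, 2 higher and 2 lower. *Aurka*, a mitotic kinase, measured 7.93, 8.57 and 8.23 without stimulation and 7.40, 7.52 and 7.71 with it, a difference of -0.70 (unadjusted p = 0.0124 from limma). The topoisomerase *Top2a* had a difference of -0.49 and the checkpoint kinase *Bub1* of 0.78 (limma, unadjusted p = 0.0281 for the first and unadjusted p = 0.0112 for the second), all 3 without overlap. *Bub1* lay within the range of the receptor probe sets on all 6 arrays, and *Top2a* on the 3 u40Hz arrays. *Mcm5* and many other genes of the list also lay within it on all 6 arrays. The counts and the median of this list therefore rest in large part on dim signals.

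**Figure D4:**
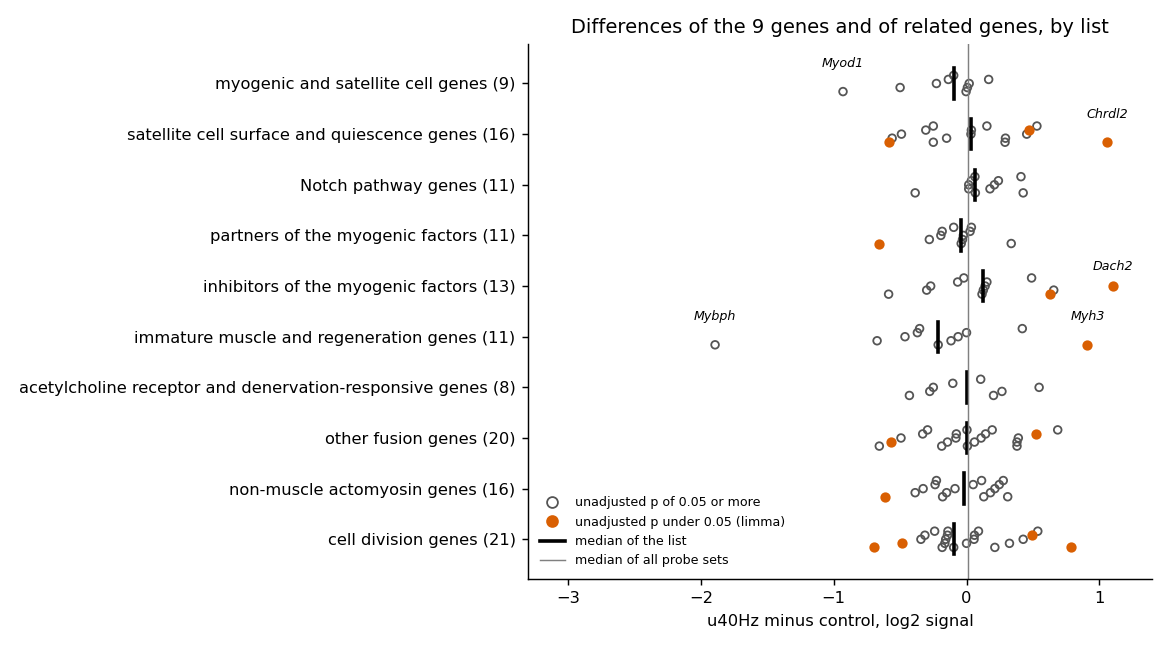
Difference between the groups (u40Hz minus control, log2 scale) of the 9 genes and of each measured gene of the 9 lists, with the number of genes in brackets, the list median (black bar) and the median of all probe sets (grey line). Filled points have an unadjusted p under 0.05 in limma; none of the 9 genes does, and the list medians lie between -0.21 and 0.13.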

How the data were processed

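The triceps of 6 male SAMP-10 mice was measured with 1 Affymetrix Mouse Clariom S array per mouse, 3 in each group. Per the methods and the submitters' processing notes, the authors processed the array scans with the Transcriptome Analysis Console. The deposited values are log2 signals with 2 decimals for 22206 probe sets. The summary method and the genome build were not given in the sources used here, and the log2 scale was read from the values. Precision is limited by how many arrays there are. Symbols came from the platform annotation (1 symbol for 19572 probe sets, none for 2634). A symbol that was not current was replaced where a single RefSeq symbol listed it as a synonym. After this step each was in the RefSeq table of GRCm38.p6. Of several probe sets of a gene (55 genes), the one with the highest mean was used. At most 1.27% of values were equal between 2 arrays.

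The groups were compared with lmFit and eBayes of limma 3.58.1 (R 4.3.3, default settings) on all probe sets, without a filter, two-sided, with p-values adjusted over all of them by the method of Benjamini and Hochberg. Group means are given with the SD over mice, and 95% intervals and unadjusted p-values come from the same fit. The fit was tested on simulated data before use. Of changes of 1 log2 unit put into those data, 27.6% were recovered with the right sign at an adjusted p under 0.05 (limma). For changes of 2 and 3 log2 units it was 74% and 91.6%. The genes and lists were chosen with earlier results of these data known. Named were the 9 genes, in each list the 3 genes of smallest unadjusted p, and the 3 genes most like each of the 9 that spans over 1.5 log2 units (*Myod1* alone), passing over Gm and Rik symbols and olfactory and vomeronasal receptors. *Calcr*, *Cdh15*, *Mcm5* and *Myh8* were named after their values were seen. Listed genes without a probe set under their symbol were left out. Measured genes not named singly entered only the list counts, the medians and the figure of the lists. Alternatives were other variance priors, no moderation, quantile normalization, median centring, leaving out probe sets at or below the median signal, averaging the probe sets of a gene, array weights and leaving out each mouse.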

Additional observations from a re-analysis of the deposited data

How the results depend on the processing

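No paired analysis was possible because the groups share no mouse number. No alternative run gave a probe set an adjusted p under 0.05 (limma). For *Myod1* the adjusted p ran from 0.534, without control mouse 1, to 0.984. *Pax7*, *Myod1* and *Myog* kept a lower mean in all alternatives that tested them (*Pax7* from -0.37 to -0.12, *Myod1* from -1.42 to -0.64, *Myog* from -0.67 to -0.19). The alternatives reuse the same arrays, so a kept sign is no separate support. *Pax7* lay within the range of the receptor probe sets on 6 arrays, *Myog* on 4 and *Myod1* on 3. The genes with differences near 0 changed sign: *Pax3* to -0.0150 with quantile normalization and -0.0246 with array weights, *Myf5* to 0.0188 with array weights, and *Mymx* to -0.0128 with quantile normalization, -0.00333 with median centring and -0.0139 with array weights. Leaving out each mouse gave from -0.10 to 0.17 for *Pax3*, from -0.29 to 0.13 for *Myf5*, from -0.37 to 0.0817 for *Myf6*, from -0.14 to 0.10 for *Mymk*, from -0.0917 to 0.0733 for *Mymx* and from -0.20 to 0.42 for *Myh9*. The cause was not tested. The number of the 9 with an unadjusted p under 0.05 was 0 with every other prior, with no moderation and with each normalization, and from 0 to 1 when a mouse was left out (*Myod1*, without control mouse 1 or without u40Hz mouse 10). The number without overlap was from 0 to 2 (*Myod1* and *Myog* without control mouse 1, *Mymx* without u40Hz mouse 4, *Myod1* without u40Hz mouse 10, *Pax7* without u40Hz mouse 11), where the fits with 5 mice left 19.7% to 25.4% of all probe sets without overlap. With the dim probe sets left out, *Myf6* and *Myh9* were the 2 of the 9 genes still tested. Quantile normalization left 1 of the 9 with a higher mean, and median centring and array weights left 2. Over all probe sets the count with an unadjusted p under 0.05 (1556) was 1007 (4.53%) when control mouse 6 was left out, 1777 (8%) when control mouse 1 was, and 1838 (8.28%) when u40Hz mouse 10 was. The 3 genes named by p in each list changed no sign under these alternatives (*Calcr*, *Cdh15*, *Mcm5* and *Myh8* were not run). *Chrdl2*, *Dach2*, *Aurka* and *Bub1* alone among them kept an unadjusted p under 0.05 (limma) whichever mouse was left out. They were picked for a small p on the same arrays, so this is no separate support. The share of all probe sets that did the same was not counted. *Chrdl2* and *Bub1* lay within the range of the receptor probe sets on all 6 arrays, and *Dach2* on 3. Over all alternatives the list medians ran from 0.0167 to 0.16 for Notch, from 0.0267 to 0.18 for the inhibitors and from -0.31 to -0.11 for immature muscle. That of the satellite cell list turned to -0.0942 without u40Hz mouse 11, to -0.0608 without control mouse 8, to -0.0269 with quantile normalization and to -0.15 without the dim probe sets, and that of the cell division list to 0.0200 without control mouse 1 and to 0.0333 without u40Hz mouse 4. The medians of the acetylcholine receptor, other fusion and actomyosin lists, all near 0, also turned.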
